A study of Mus musculus with 6 samples.

Results

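Sodium, calcium and HCN channel genes in the mouse hippocampus are described here in 6 RNA-seq libraries. The set is a list of 30 genes chosen by name, by the channel family they belong to. It holds 5 pore-forming (alpha) and 3 beta subunits of the voltage-gated sodium channels, 3 FGF homologous factors that bind those channels, 8 pore-forming, 4 beta and 3 alpha2delta subunits of the voltage-gated calcium channels, and 3 HCN channels together with the leak channel Nalcn. All 30 were among the 25239 gene symbols of the counts, and all 30 passed the filter on low counts that left 14445 genes for testing. The libraries came from the hippocampus of male C57BL/6 mice, 6 to 8 weeks old by the study's methods. Of these mice, 3 were WT (Ube3a m+/p+) and 3 were Ube3a m-/p+, which lack the maternal copy of Ube3a and keep the paternal one. Ube3a encodes an E3 ubiquitin ligase, and loss of its maternal copy is the genetic basis of Angelman syndrome. In neurons the paternal copy is silenced by a long antisense transcript of the Snhg14 locus, whereas other brain cells use both copies, so the mice are not null for Ube3a in every cell.

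Voltage-gated sodium channels carry the rising phase of the action potential, and their beta subunits and the FGF homologous factors set where they sit in the axon and how they inactivate. Voltage-gated calcium channels turn depolarisation into calcium entry, the high-voltage-activated kinds at synapses and dendrites and the T-type kinds near the resting potential, where they support burst firing. HCN channels open on hyperpolarisation and carry the pacemaker current, and NALCN passes a steady sodium leak that sets the resting potential.

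The counts assigned to genes ranged from 7293272 to 8675252 in the WT libraries and from 8871052 to 11314409 in the Ube3a m-/p+ libraries. Levels are given as CPM, a gene's share of these totals scaled to a common library size. Ube3a itself was read as a check of the labels, at 104, 141 and 151 CPM in the WT mice and 96.8, 82.9 and 80.6 CPM in the Ube3a m-/p+ mice. Its log2 fold change was -0.58 (SE 0.12, adjusted p = 0.0363, edgeR quasi-likelihood test), and the genotypes did not overlap. Corrected for GC content and length as described next, it was -0.20 (adjusted p = 0.241). With a GC content of 36.9% and mice 1 of the genotypes close together, Ube3a does not settle the labels. The strand setting of the counting is not given in the sources used here, and 1803 bases of Ube3a exons lie under exons of Snhg14 on the other strand. The libraries differed in how counts depended on the GC content of a transcript. Across genes, the Spearman rho between GC content and a library's deviation from the mean of all libraries was 0.0455 in WT mouse 1, -0.506 in WT mouse 2 and -0.571 in WT mouse 3. In Ube3a m-/p+ mice 1 to 3 it was 0.0589, 0.526 and 0.528. In mice 2 and 3 this relation and the genotype cannot be told apart, so values corrected for GC content and transcript length are given beside the fitted ones. The library closest to WT mouse 1 was Ube3a m-/p+ mouse 1, at 3.92 in chi-square divided by its degrees of freedom over genes, below the 6.16 and 9.03 of WT mouse 1 with the other WT mice. Markers of CA1, of CA2 and CA3 and of the dentate gyrus were found in every library, at summed levels of 424 to 511, 301 to 351 and 312 to 366 CPM.

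The channel genes spanned a wide range of levels. To compare genes, CPM were divided by the length in kilobases of the longest annotated transcript. In WT mice Fgf13, an FGF homologous factor that binds sodium channels, was highest at 112 ± 7.81 CPM per kb (SD, n = 3). Next were the beta subunits Scn3b at 93 ± 1.06, Cacnb3 at 75 ± 4.66 and Scn2b at 66.8 ± 4.44 CPM per kb. In the WT mice the values of Cacnb3 and Scn2b met at 71.8 CPM per kb, while those of Fgf13 and Scn3b did not meet each other or those of Cacnb3. When the length of all exons together was used instead, the same 4 genes led in the order Scn3b, Fgf13, Scn2b and Cacnb3.

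Among the sodium channel pores, Scn8a, which encodes NaV1.6 of the axon initial segment, had the highest level at 44.4 ± 0.918 CPM per kb in WT mice. Within that family Scn2a followed at 29.9 ± 2.68, Scn1a, the main sodium channel of fast-spiking interneurons, at 11.9 ± 0.619, and Scn3a at 6.71 ± 0.59 CPM per kb. Among the calcium pores Cacna1a, of the P/Q-type channel of presynaptic terminals, stood at 38.8 ± 3.5 CPM per kb, and the T-type Cacna1h at 32.3 ± 5.8 CPM per kb, with overlapping values. Hcn2 was at 43.5 ± 4.95, overlapping Scn8a, and stood above it when the length of all exons was used, whereas Hcn3 was at 3.54 ± 0.423 CPM per kb. The lowest were Scn9a, the NaV1.7 of sensory neurons, at 0.34 ± 0.0168, and Hcn4, the pacemaker channel of the heart and thalamus, at 0.237 ± 0.0983 CPM per kb. Those last genes rested on 164 and 115 counts over the 6 libraries, so their fold changes have wide intervals.

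**Figure D1:**
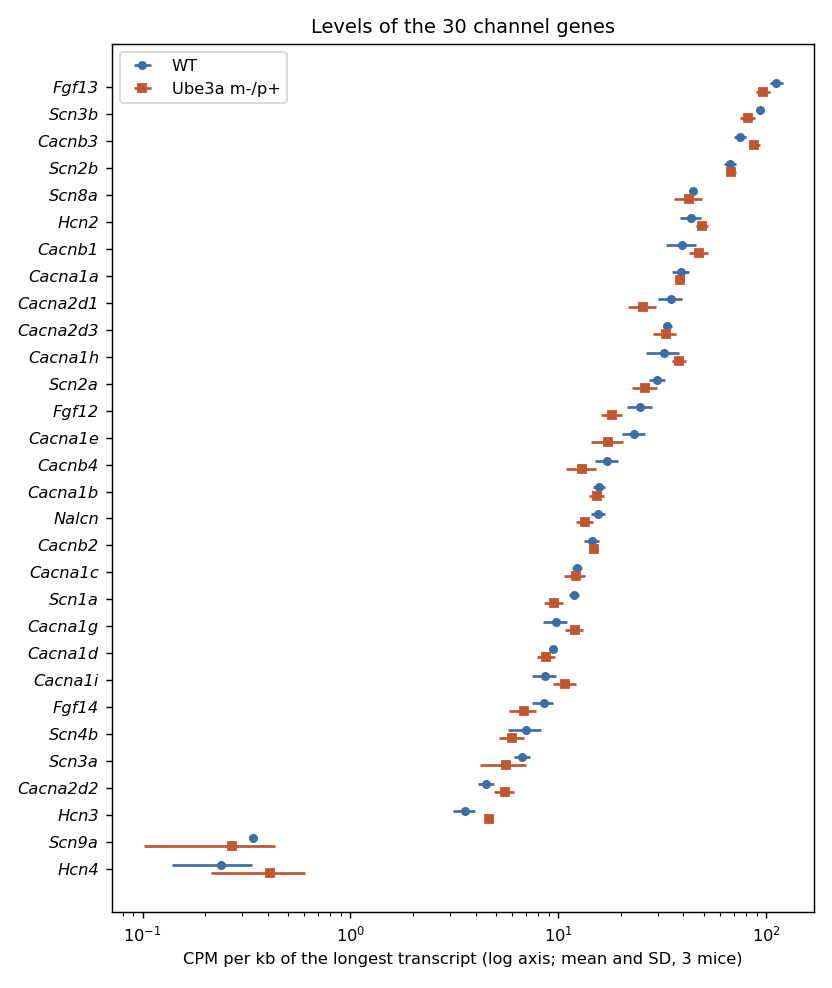
Level of each of the 30 channel genes in CPM per kilobase of the longest transcript on a log axis, ordered by the WT mean. Circles are WT and squares are Ube3a m-/p+ means of 3 mice with SD as bars. Levels run from 112 CPM per kb for Fgf13 to 0.237 for Hcn4 in WT mice, and for most genes the genotypes lie close together on this scale.

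Several of the genes are neighbours (GRCm38, GENCODE M21). Scn3a, Scn2a, Scn1a and Scn9a lie in a row on chromosome 2, with Scn3a from 65457118 to 65567627 and Scn9a from 66480080 to 66634962. The gaps between them are 53.1, 503.3 and 39.2 kb. Scn2b and Scn4b are 8.3 kb apart on chromosome 9. On chromosome 14, Cacna2d3 and Cacna1d are 318.1 kb apart, and Nalcn and Fgf14 are 350.8 kb apart. Many of the genes are long, from 12.3 kb for Scn2b to 816.9 kb for Cacna2d3. Exons of 2 members overlap a gene on the other strand by the largest shares of their length, namely Hcn3 with Pklr over 711 bases (17.1%) and Cacnb4 with A430018G15Rik over 1433 bases (16.0%). Pklr did not exceed 0.19 CPM in any library, and A430018G15Rik was not among the symbols of the counts.

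The study from which the libraries come is about retinoic acid signalling, in which receptors bind direct repeats of the short motif AGGTCA. RefSeq promoters (GRCm38.p6, from 250 bases before to 50 bases after each gene start) were found for 24 of the 30 genes, and Scn3a, Scn3b, Cacna1a, Cacna1g, Cacna1h and Hcn3 were not matched. AGGTCA stood on either strand in a promoter of 4 of the 24 genes (16.7%), against 18.1% of all 27025 genes with a promoter. AGGTCA repeated in the same direction after 5 bases was in none of the 24, against 0.0111% of all genes, and after 2 bases in none, against 0.0074%. These exact repeats were in 3 and 2 of the 27025 genes, and variants of the motif were not searched. Their absence from 24 genes therefore cannot decide whether these promoters hold response elements. The cAMP response element TGACGTCA was also in none, against 2.03%, and TATAAA was in a promoter of 3 (12.5%, Cacna1d, Fgf13 and Scn2a) against 15.7%. The promoters of the channel genes were richer in GC, with a median of 71.7% against 53.3% and a median of 32.5 CpG against 8, when each gene was represented by its promoter of highest GC content. The 4 promoters with AGGTCA are shown, with capitals marking AGGTCA or its reverse complement. None of them holds the direct repeats named above, and binding of a receptor was not tested. They lie at chr2:66440788-66441087 (minus strand) for the sodium pore Scn1a, chr15:100936021-100936320 (plus strand) for the sodium pore Scn8a, chr16:28564902-28565201 (minus strand) for Fgf12 and chr10:79716384-79716683 (plus strand) for Hcn2. For Scn8a and Fgf12 this is not the only promoter in the table.
Scn1a: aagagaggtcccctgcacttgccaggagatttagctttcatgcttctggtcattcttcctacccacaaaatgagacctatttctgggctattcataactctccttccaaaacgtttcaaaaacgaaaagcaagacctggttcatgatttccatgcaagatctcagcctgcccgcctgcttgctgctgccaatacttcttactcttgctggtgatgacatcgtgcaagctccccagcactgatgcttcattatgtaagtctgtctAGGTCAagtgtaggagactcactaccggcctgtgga
Scn8a: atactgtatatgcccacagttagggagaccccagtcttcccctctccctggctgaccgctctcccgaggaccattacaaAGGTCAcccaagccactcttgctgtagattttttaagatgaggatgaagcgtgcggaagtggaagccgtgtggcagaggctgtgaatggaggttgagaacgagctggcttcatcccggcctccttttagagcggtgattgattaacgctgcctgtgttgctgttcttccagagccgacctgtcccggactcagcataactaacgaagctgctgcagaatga
Fgf12: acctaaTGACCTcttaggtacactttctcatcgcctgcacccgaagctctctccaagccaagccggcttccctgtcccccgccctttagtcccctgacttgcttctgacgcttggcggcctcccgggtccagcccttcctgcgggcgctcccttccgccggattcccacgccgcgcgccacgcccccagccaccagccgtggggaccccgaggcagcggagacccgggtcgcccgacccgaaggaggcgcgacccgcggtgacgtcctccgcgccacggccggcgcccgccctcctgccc
Hcn2: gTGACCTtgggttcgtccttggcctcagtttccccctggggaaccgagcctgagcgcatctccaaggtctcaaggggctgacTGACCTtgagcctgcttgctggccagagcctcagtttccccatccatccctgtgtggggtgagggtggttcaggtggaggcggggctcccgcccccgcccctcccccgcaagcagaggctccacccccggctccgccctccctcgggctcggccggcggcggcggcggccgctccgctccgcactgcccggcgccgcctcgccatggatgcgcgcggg

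The comparison of Ube3a m-/p+ with WT mice asked whether the loss of maternal Ube3a went with a different level of any channel gene. None of the 30 was called in either direction by the edgeR quasi-likelihood test at an adjusted p under 0.05 and a fold change over 1.2. Of all genes tested 2.01% were called, 1.02% higher and 0.99% lower in Ube3a m-/p+ mice. With so low a share, the lack of a call among 30 genes does not set the channel genes apart. The smallest adjusted p was 0.0513, for Fgf12. At an unadjusted p under 0.05, 15 of the 30 stood out (24.6% of all genes did), and DESeq2 called 4 (Fgf12, Cacna1e, Cacnb4 and Cacna2d1, all lower in Ube3a m-/p+) beside 6.69% of all genes, or 3.24% counting lower genes. The 15 split into 7 higher (12.2% of all genes), namely Cacna1g, Cacna1h, Cacna1i, Cacnb1, Cacnb3, Cacna2d2 and Hcn3, and 8 lower (12.4% of all genes), namely Scn1a, Fgf12, Fgf13, Fgf14, Cacna1e, Cacnb4, Cacna2d1 and Nalcn. The CPM of the genotypes did not overlap for 10 genes (25% of all genes tested), 4 of them higher (10.8%) and 6 lower (14.2%) in Ube3a m-/p+ mice. The exact two-sided permutation test of a single gene cannot go below p = 0.1 with 3 mice against 3. The 30 log2 fold changes had a median of -0.03, beside 0.0025 for all genes, with 12 positive and 18 negative. In bulk tissue fewer cells of a type and less RNA per cell cannot be told apart.

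**Figure D2:**
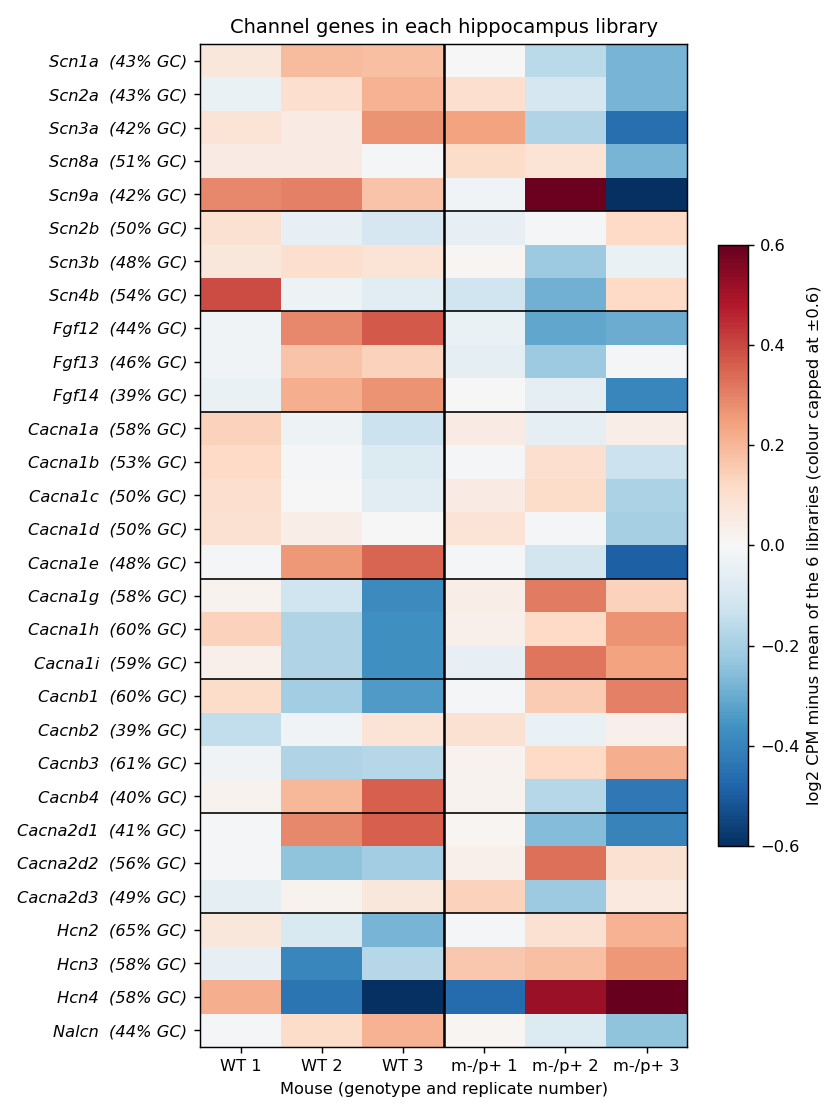
Each row is a channel gene with the GC content of its longest transcript, each column a mouse, and the colour is log2 CPM minus the gene's mean over the 6 libraries, with colours capped at ±0.6. Horizontal lines separate the roles and the vertical line the genotypes. WT 2 and WT 3 are red and Ube3a m-/p+ 2 and 3 are blue for most GC-poor genes such as Cacnb4 and Cacna2d1, with the reverse for GC-rich genes such as Cacna1h and Cacnb1, while mice 1 of both genotypes are pale for most genes.

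The 5 sodium channel pores all had negative log2 fold changes, with a median of -0.25, and none passed the test. Scn1a had the lowest unadjusted p of the 5. It stood at 93.5, 102 and 103 CPM in the WT mice and 88.8, 79.7 and 72.1 CPM in the Ube3a m-/p+ mice, without overlap. Its log2 fold change was -0.29 (SE 0.09, adjusted p = 0.083) at a GC content of 43.3%, and -0.09 (adjusted p = 0.646) after correction for GC content and length. Scn2a, the pore of excitatory axons, ran from 243 to 291 CPM in WT and from 202 to 267 CPM in Ube3a m-/p+ mice, and Scn3a, best known from the developing brain, from 60.4 to 70.6 and from 41.6 to 68.2 CPM. Both overlapped between genotypes, and their corrected log2 fold changes were 0.03 and -0.02. Scn8a stood at 512, 515 and 495 CPM in WT mice and 534, 521 and 400 CPM in Ube3a m-/p+ mice, so that only mouse 3 was below the WT range. The log2 fold change was -0.05, and -0.04 after correction. Scn9a had the largest difference of the 5 and the least certain, at 3.42, 3.46 and 3.15 CPM in WT mice against 2.71, 4.24 and 0.951 CPM. The Ube3a m-/p+ mice thus lay on both sides of the WT mice, and the log2 fold change of -0.32 had a 95% interval from -1.16 to 0.52, with -0.10 after correction. After correction the median of the 5 pores was -0.04.

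The sodium channel beta subunits, which are adhesion-like partners of the pores, had log2 fold changes of 0.04 (Scn2b), -0.16 (Scn3b) and -0.20 (Scn4b), none past the test. Scn3b was the one whose genotypes did not overlap, with 381 to 389 CPM in WT and 309 to 364 CPM in Ube3a m-/p+ mice. Scn4b, whose protein is linked to resurgent sodium current, was set apart by WT mouse 1 at 41.9 CPM, above 30.7 to 31.5 CPM in the other WT mice. Its log2 fold change without that mouse was -0.04. The correction, at 54.5% GC, moved it the other way to -0.30 (95% interval -0.55 to -0.05, adjusted p = 0.25). The corrected values of Scn2b and Scn3b were 0.02 and -0.11.

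The 3 FGF homologous factors, intracellular proteins that bind the tails of sodium channels, had lower means in Ube3a m-/p+ mice, with a median log2 fold change of -0.30. Fgf12 came closest to the threshold of all 30 genes. It stood at 86.5, 107 and 114 CPM in the WT mice and 84.9, 70.1 and 70 CPM in the Ube3a m-/p+ mice, without overlap but with mice 1 nearly level. The log2 fold change was -0.44 (SE 0.11, adjusted p = 0.0513), and -0.28 (adjusted p = 0.087) after correction. Fgf12 was called lower with DESeq2 (adjusted p = 0.0154), with RLE factors (adjusted p = 0.0489) and with a minimum of 10 counts in every library (adjusted p = 0.0491). Over all genes these fits called 967, 399 and 392, against 290 in the main analysis. Over the 6 fits that left out 1 library, its log2 fold change ranged from -0.54 to -0.36 and its adjusted p from 0.003 to 0.274. Fgf13 had 258, 293 and 289 CPM in WT and 249, 222 and 254 CPM in Ube3a m-/p+ mice, and the log2 fold change was -0.19. Fgf14, whose human counterpart is mutated in a spinocerebellar ataxia, ran from 26.6 to 33.3 and from 20.4 to 27.3 CPM. The corrected values of Fgf13 and Fgf14 were -0.12 and -0.03.

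Of the 5 high-voltage-activated calcium pores, Cacna1e stood apart from the others, which were near 0. Cacna1e encodes the R-type CaV2.3 channel of dendrites and spines. It was at 296, 357 and 381 CPM in WT mice and 295, 274 and 208 CPM in Ube3a m-/p+ mice. The mice numbered 1 were level, and the other Ube3a m-/p+ mice lay below every WT mouse. The log2 fold change was -0.40 (SE 0.12, adjusted p = 0.0744). With the correction, at a GC content of 48.3%, it was -0.33 (SE 0.08) with an adjusted p of 0.0388, and it was 1 of 2 channel genes called by that fit, beside 0.648% of all genes (0.282% lower). The adjusted p was 0.132 when the corrected fit also held the replicate number as a block, a fit that called none of the 30 and 0.0915% of all genes. Cacna1a, Cacna1b, Cacna1c and Cacna1d, the pores of the P/Q-, N- and L-type channels, had log2 fold changes of 0.01, -0.02, -0.01 and -0.09, and the sign for Cacna1a turned with the correction (-0.14, adjusted p = 0.387) and with scaling by library size only. The corrected values of the other 3 were -0.06, 0.01 and -0.04. Each 95% interval of these 4 lay within -0.28 and 0.20.

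The 3 T-type calcium pores each had a higher mean in Ube3a m-/p+ mice, and none passed the test. Cacna1g was at 91.8, 83.6 and 70.3 CPM in WT and 92.8, 112 and 98.1 CPM in Ube3a m-/p+ mice, with 0.32 as log2 fold change (SE 0.11, adjusted p = 0.0965). Cacna1i was at 96.2, 83.1 and 73.4 CPM in WT and 90.6, 117 and 109 CPM in Ube3a m-/p+ mice, with 0.34 as log2 fold change (SE 0.12, adjusted p = 0.0947). In both genes mice 2 and 3 of the genotypes were apart, and mice 1 differed by 0.02 and -0.09 on the log2 scale. Cacna1h ran from 225 to 318 CPM in WT and from 293 to 341 CPM in Ube3a m-/p+ mice, with a log2 fold change of 0.26 that ranged from 0.15 to 0.41 when 1 mouse was left out. The GC contents of the 3 genes were 58.1% to 60%. Their corrected log2 fold changes were 0.17 for Cacna1g (adjusted p = 0.336), 0.08 for Cacna1h (0.705) and 0.17 for Cacna1i (0.369).

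The calcium channel beta subunits, which bind the pore inside the cell and carry it to the membrane, had log2 fold changes of both signs, and none passed the test. Cacnb4 was lower in mean, at 124, 141 and 159 CPM in WT and 124, 108 and 88.9 CPM in Ube3a m-/p+ mice. The genotypes did not overlap, though mice 1 were nearly level, and its log2 fold change was -0.39 (SE 0.12, adjusted p = 0.0706) at 40.5% GC. The correction left -0.11 (adjusted p = 0.541). Cacnb3, at 61.3% GC, had 220, 196 and 199 CPM in WT and 225, 240 and 254 CPM in Ube3a m-/p+ mice, and its log2 fold change was 0.24, or -0.03 with the correction. Cacnb1, the beta subunit also used in skeletal muscle, went from 0.29 to 0.06 at 59.7% GC. Cacnb2, the most GC-poor of the 30 genes by its longest transcript, was near 0 as counted. Its CPM overlapped, at 66.8 to 79.3 in WT and 71.4 to 78.5 in Ube3a m-/p+ mice, and its log2 fold change was 0.05, but the corrected fit called it higher at 0.35 (adjusted p = 0.0312), as it did 0.366% of all genes. Its longest transcript is a retained-intron transcript of 3 exons with 39% GC. With the longest coding transcript, at 46.3% GC, the corrected log2 fold change was 0.15 (adjusted p = 0.395).

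The alpha2delta subunits, extracellular proteins that raise the surface density of calcium channels, also went in different directions. Cacna2d1 was at 220, 270 and 287 CPM in WT and 222, 183 and 164 CPM in Ube3a m-/p+ mice. Ube3a m-/p+ mouse 1 was level with WT mouse 1, and the other Ube3a m-/p+ mice lay below every WT mouse. The log2 fold change was -0.43 (SE 0.11, adjusted p = 0.0564) at 40.7% GC, and -0.16 (adjusted p = 0.28) after correction. Cacna2d2 was at 28.7, 24.6 and 25.2 CPM in WT and 29.5, 36.1 and 30.3 CPM in Ube3a m-/p+ mice, without overlap. Its log2 fold change of 0.31 (SE 0.12, adjusted p = 0.136) became 0.19 (adjusted p = 0.441). Cacna2d3 had -0.01, with a 95% interval from -0.22 to 0.20, its sign turned with upper-quartile scaling, and it was 0 with the correction.

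The 3 listed HCN genes had positive log2 fold changes, Hcn2 only without the correction, and Nalcn a negative one. Hcn3 was at 15.7, 12.3 and 14.5 CPM in WT and 18.1, 18.3 and 19.2 CPM in Ube3a m-/p+ mice. Every Ube3a m-/p+ mouse was above every WT mouse, and it was the only one of the 15 genes with an unadjusted p under 0.05 in which mice 1 differed by more than 0.13 in either direction on the log2 scale. The log2 fold change was 0.41 (SE 0.14, adjusted p = 0.0972), and 0.21 (adjusted p = 0.502) after correction. Hcn4 was at 2.12, 1.27 and 0.96 CPM in WT and 1.24, 2.65 and 3.61 CPM in Ube3a m-/p+ mice. It had the largest log2 fold change of all 30 genes, 0.81, but overlapped between genotypes, and its 95% interval ran from -0.09 to 1.70. It ranged from 0.45 to 1.19 when 1 mouse was left out, and was 0.65 after correction. Hcn2, at 65.4% GC the most GC-rich of the genes, had a log2 fold change of 0.19 that turned to -0.15 with the correction. Nalcn ran from 102 to 120 CPM in WT and from 85.5 to 103 CPM in Ube3a m-/p+ mice, and its log2 fold change of -0.21 became -0.03.

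**Figure D3:**
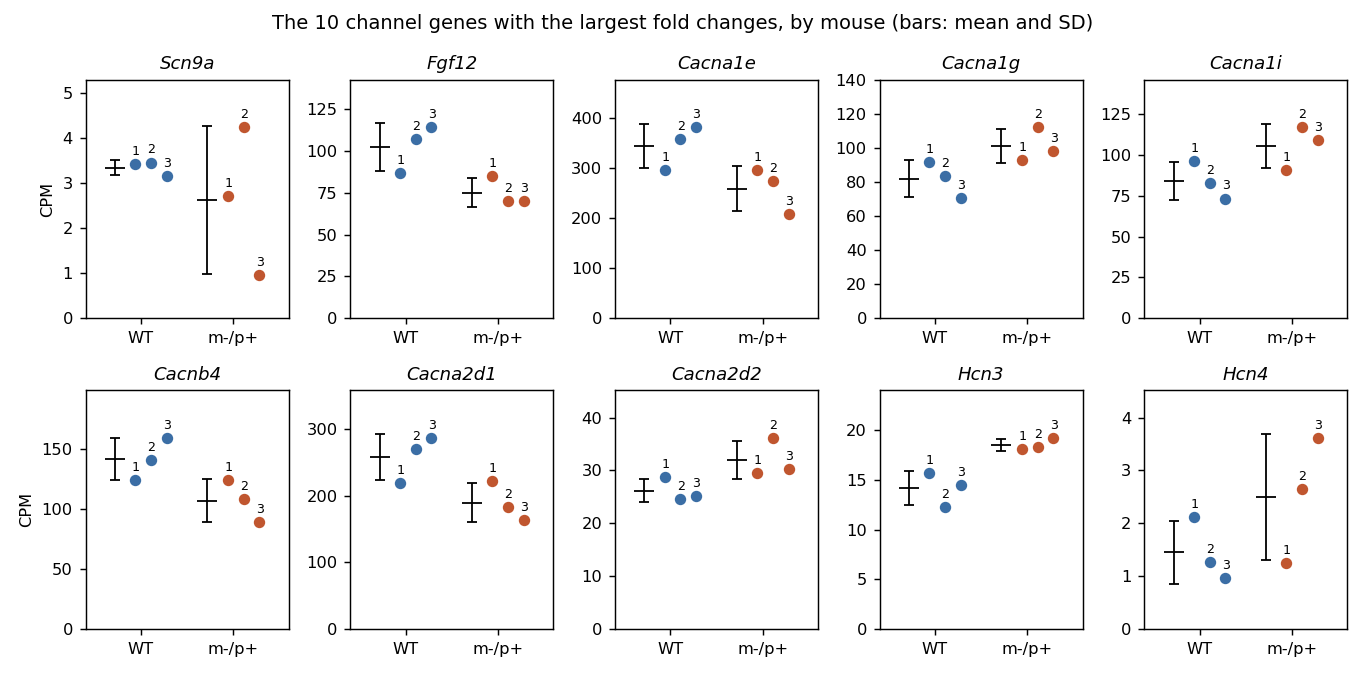
CPM in each mouse for the 10 channel genes with the largest log2 fold changes, on linear axes from 0. Points are mice labelled with their replicate number, blue for WT and red for Ube3a m-/p+, and the bars to their left are the mean and SD of 3 mice. Mice 1 of the genotypes lie side by side in Fgf12, Cacna1e, Cacnb4 and Cacna2d1, while in Hcn3 they lie apart. The genotypes do not overlap in Hcn3, Cacna1g and Cacna2d2 (higher in Ube3a m-/p+) and in Fgf12, Cacna1e and Cacnb4 (lower).

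**Figure D4:**
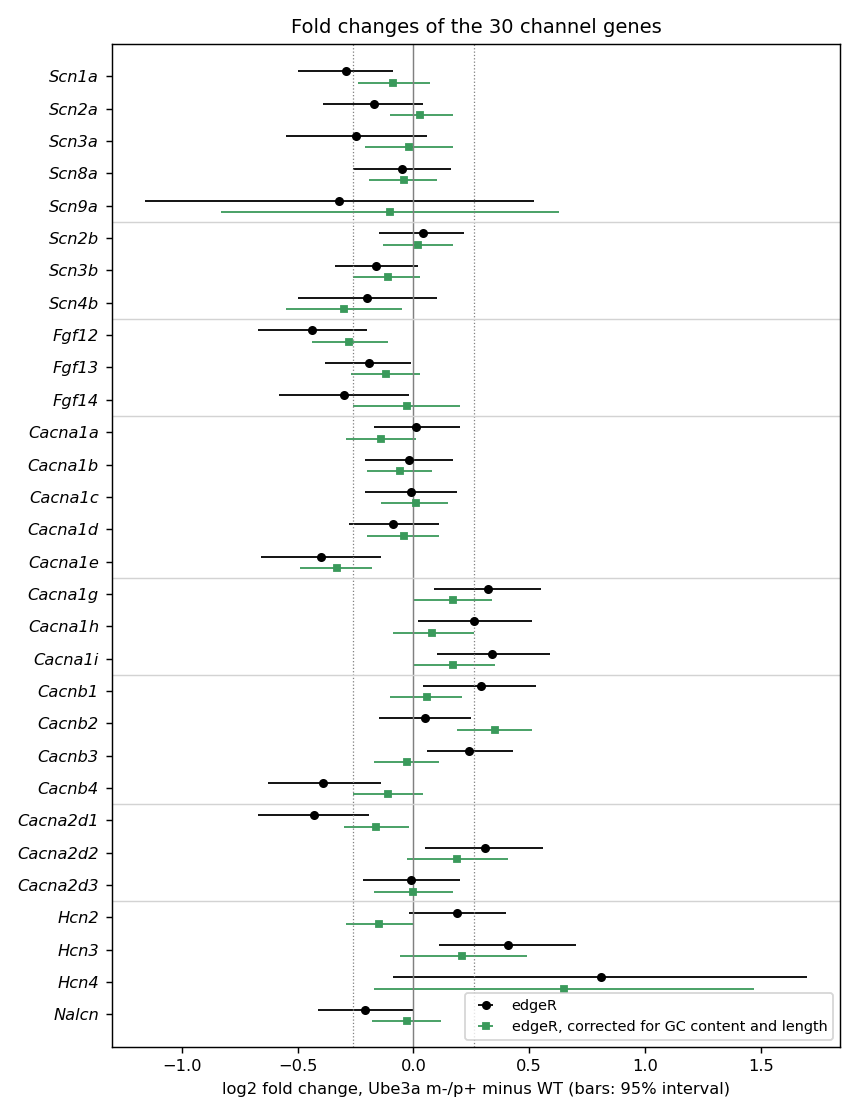
log2 fold change of Ube3a m-/p+ minus WT with its 95% interval for the 30 channel genes, from edgeR (black circles) and from edgeR corrected for GC content and transcript length (green squares). Dotted lines mark a fold change of 1.2 in either direction. Most corrected values are closer to 0, with Cacna1e at -0.33 and Cacnb2 at 0.35 as the genes called in the corrected fit.

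The sign of a channel gene's log2 fold change ran with its GC content. Of the 15 genes with a GC content of 50% or more, 11 had a positive log2 fold change, with a median of 0.24. Of the 15 below 50%, 14 had a negative one, with a median of -0.25. All genes tested showed the same split, with 5307 of 7002 positive above 50% (median 0.14) and 5348 of 7199 negative below (median -0.14). Spearman's rho between GC content and log2 fold change was 0.766 over the 30 genes and 0.622 over 14201 genes, as a description, since genes share the libraries and are not replicates. The log2 fold change also ran against the length of the gene on the chromosome (rho -0.543, n = 30), which itself ran against GC content (rho -0.583). After the correction rho with GC content was 0.234 over the 30 genes, and the medians were 0.02 at 50% or more and -0.09 below 50%. Of the 15 genes at 50% or more, 9 were positive after the correction, and of the 15 below 50%, 12 were negative. For all genes tested these counts were 3398 of 7002 and 3852 of 7199, with a median of -0.01 on each side. Over all 30 genes the corrected median was -0.03, beside -0.01 for all genes, and 7 had an unadjusted p under 0.05 (14.2% of all genes), namely Scn4b, Fgf12, Cacna1e, Cacna2d1 and Hcn2 lower (7.34% of all genes) and Cacna1g and Cacnb2 higher (6.87%).

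**Figure D5:**
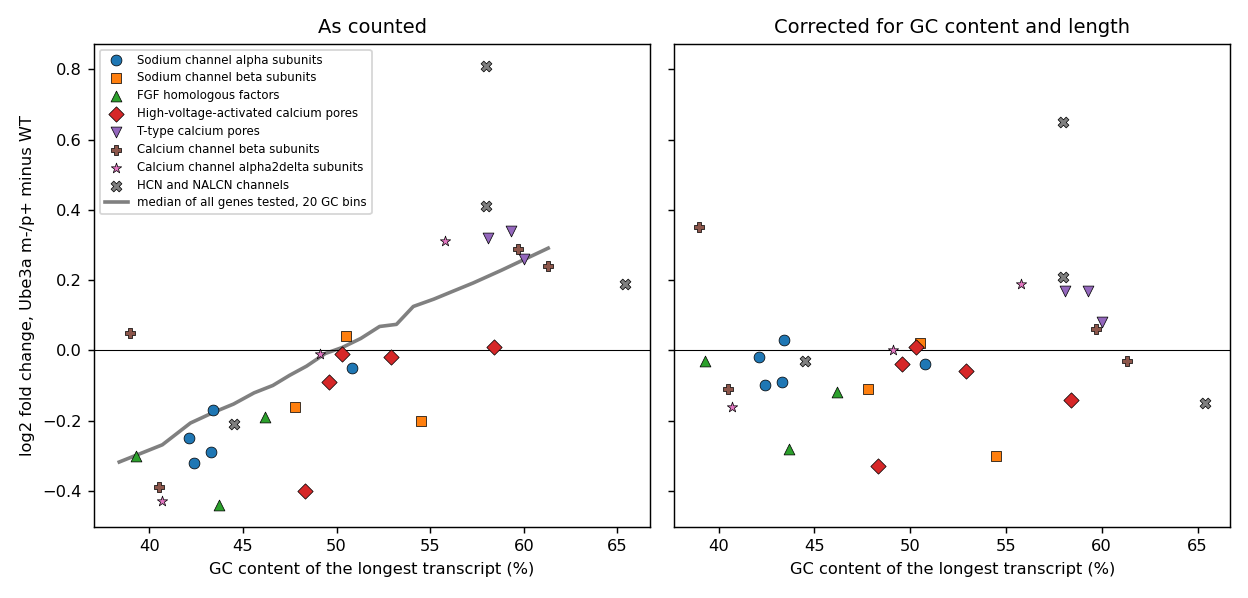
log2 fold change of each channel gene against the GC content of its longest transcript, as counted on the left and corrected for GC content and length on the right, with a symbol for each role. The grey line is the median of all genes tested in 20 bins of GC content. On the left the channel genes follow the line from negative values near 40% GC to positive values near 60% GC (rho 0.766), and on the right the trend is weaker (rho 0.234).

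The log2 difference between the mice numbered 1 ran from -0.77 (Hcn4) to 0.23 (Cacnb2) over the 30 genes, with Scn4b at -0.51 and Scn9a at -0.34. For all 15 genes with an unadjusted p under 0.05, this difference of Ube3a m-/p+ mouse 1 from WT mouse 1 was closer to 0 than any difference between mice 2 and 3 of the genotypes, with a median size of 0.04 against 0.48. It had the fitted sign in 9 of the 15. It was closer to 0 in this way for 22 of the 30 genes and of 47.4% of all genes tested. The 15 genes were selected by p from these same mice, so this is a description. Without WT mouse 1, 13 of the 30 genes were called (17.6% of all genes), 8 higher (8.96%) and 5 lower (8.67%). Without Ube3a m-/p+ mouse 1, 9 were called (12.5% of all genes), 3 higher (6.53%) and 6 lower (5.96%). Without any one of the other 4 mice none of the 30 was called, in fits that called at most 2 of all genes tested. With the replicate number as a block, none was called and 9 had an unadjusted p under 0.05 (16.8% of all genes). The mice numbered 1 were also the libraries with a rho of GC content near 0, and whether this shaped the calls was not tested.

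Related channel genes and regulators were taken from a list of 34 symbols. Of these, 31 were in the counts and 24 were tested, and none was called by the main edgeR fit. At an unadjusted p under 0.05, 3 were higher (12.2% of all genes) and 3 lower (12.4%). The median log2 fold change was -0.05, or -0.09 after correction. Cacng6, a gamma subunit of calcium channels, had a log2 fold change of 1.09 (adjusted p = 0.122) at 0.589 to 2.39 CPM. Cacng8, an AMPA receptor auxiliary subunit, had 0.44 (adjusted p = 0.475). Scn7a, a sodium channel relative, had -0.32 (adjusted p = 0.604). After correction these 3 genes were at 0.96 (adjusted p = 0.299), 0.09 (0.898) and -0.02 (0.991). Unc80, a large protein of the NALCN complex, was at 275, 322 and 348 CPM in WT and 258, 245 and 206 CPM in Ube3a m-/p+ mice, without overlap. Its log2 fold change was -0.39 (adjusted p = 0.0513), and -0.31 (adjusted p = 0.0392) after correction. That is a call in the corrected fit, which called 0.282% of all genes lower.

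Markers of the cell types in the tissue differed in sign within and between lists. The sum of 6 pan-neuronal genes was 4750 to 5280 CPM in WT and 4290 to 4580 CPM in Ube3a m-/p+ mice. None of the 6 was called, with 4 log2 fold changes negative (Map2 -0.35, Snap25 -0.23) and 2 positive (Tubb3 0.34, Rbfox3 0.31), and a median of -0.15, or 0.07 after correction. The 7 markers of GABAergic interneurons summed to 637 to 659 CPM in WT and 577 to 603 CPM in Ube3a m-/p+ mice, with none called, 4 positive, 3 negative and a median of 0.02. The sums for CA1, for CA2 and CA3 and for the dentate gyrus overlapped between genotypes, with none called.

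Sums of several glial and vascular lists were lower in the Ube3a m-/p+ mice without overlap. They were 7950 to 8070 against 6640 to 7570 CPM for oligodendrocytes, 194 to 217 against 180 to 189 for their precursors, 220 to 241 against 200 to 212 for microglia, and 297 to 311 against 246 to 277 for endothelium and pericytes. Among all single genes tested, 14.2% were lower without overlap. Signs within the lists were mixed, with 3 positive and 3 negative log2 fold changes for oligodendrocytes and 1 and 3 for their precursors. Microglia had 2 and 3, and endothelium and pericytes also 2 and 3. In these lists Pdgfra (-0.43) and Rgs5 (-0.51) were called lower. In the corrected fit they were at -0.36 (adjusted p = 0.0461) and -0.29 (adjusted p = 0.0751). Astrocyte sums overlapped, at 1450 to 1590 and 1370 to 1470 CPM, with none called. All 5 striatum markers had positive log2 fold changes, with sums of 48.1 to 60.8 and 68.9 to 80.9 CPM and Ppp1r1b (0.47) called higher. Ppp1r1b, at 61% GC, was at 0.18 (adjusted p = 0.392) in the corrected fit. All 8 markers of meninges and fibroblasts were positive too, with sums of 90.6 to 149 and 95.6 to 177 CPM and Col1a1 (0.73) called higher. With the correction Col1a1 was at 0.55 (adjusted p = 0.0751). Of the 4 thalamus markers, with sums of 80.3 to 83.6 and 74 to 80.7 CPM, Rora (-0.62) was called lower. Rora, at 40.9% GC, was at -0.34 (adjusted p = 0.165) with the correction. Choroid plexus markers varied from 99 to 2160 CPM in WT and from 105 to 2250 CPM in Ube3a m-/p+ mice, with none called. Every marker had counts in every library. The sum of the 30 channel genes was 4790 to 4820 CPM in WT and 4380 to 4740 CPM in Ube3a m-/p+ mice, and the part of cell composition in it was not tested.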

How the data were processed

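Hippocampal RNA of 3 WT and 3 Ube3a m-/p+ mice was sequenced by the authors, who deposited raw counts per gene symbol, 1 table per mouse. The labels name Trizol for the extraction, and the study's methods a total RNA kit. The submitters' processing notes name STAR 2.7.4a, HTSeq and the build mm10, while the annotation and strand setting are not given in the sources used here. HTSeq's summary lines were left out of library sizes, and 54.1% to 55% of reads were on no gene and 3.71% to 5.77% aligned in more than 1 place.

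Genes were filtered with filterByExpr, scaled by TMM and tested on genotype with edgeR 4.0.16 (robust quasi-likelihood F test, two-sided, R 4.3.3), with Benjamini-Hochberg adjustment over all 14445 genes and calls at adjusted p under 0.05 and fold change over 1.2. The biological coefficient of variation was 0.102. SE and 95% intervals are on the log2 scale. The dependence of counts on a gene's GC content and length (longest transcript in GENCODE M21) was removed per library as offsets from natural splines of 5 degrees of freedom each, for 98.3% of the genes tested. A fit with the longest coding transcript was added after seeing the data. DESeq2 1.42.0, other scalings, filters, a replicate block and fits without 1 mouse were the other alternatives. The scripts were tested on simulated data. Counts per library on genes were 7293272 to 11314409, and Scn9a and Hcn4 rest on 164 and 115 counts in all.

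All 30 genes are named, with values in every mouse for the 10 of largest absolute log2 fold change and for any called. Values in every mouse of further genes were added after they were seen. Of related genes, those called and the 3 largest positive and negative values were to be named, and some of these are not reported here. The genes and lists were chosen with earlier results of these data known. The labels number the mice 1 to 3 in both genotypes and do not say that a number marks a shared litter or batch.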

Additional observations from a re-analysis of the deposited data

How the results depend on the processing

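The 30 channel genes gave no call by edgeR with library-size scaling, upper-quartile scaling or the replicate block. RLE factors and a minimum of 10 counts in every library each called 1 lower (Fgf12), DESeq2 4 lower, and no filter 2 higher and 4 lower. DESeq2 gave no adjusted p for Scn9a and Hcn4. The correction for GC content and length called 1 higher and 1 lower, with the longest coding transcript 1 lower, and an unadjusted p under 0.05 with a fold change over 1.2 called 5 higher and 6 lower. Calls over all genes were 290 in the main analysis (2.01%), 967 with DESeq2 (6.69%), 399 with RLE factors and 392 with the minimum of 10 counts. They were 1176 without a filter, 92 with the correction (0.648%), 96 with it on coding transcripts and 13 with it and the block (0.0915%). At an unadjusted p under 0.05 with a fold change over 1.2 there were 2832 among 14445 genes tested. Fits without 1 mouse gave 0 to 2582 calls over all genes, 0 to 8 channel genes higher and 0 to 6 lower, and a median of -0.09 to -0.01. Without WT mouse 1 or Ube3a m-/p+ mouse 1 there were 2582 (17.6%) and 1816 (12.5%) calls, and without any other mouse at most 2.

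The numbers were not taken as pairs in the main analysis. Deviations of same-numbered mice from their own genotype's mean had correlations of -0.285, -0.177 and -0.311. These cannot show whether numbers mark pairs, because rho of GC content lay on opposite sides of the 2 genotype means. It was 0.0455, -0.506 and -0.571 in WT and 0.0589, 0.526 and 0.528 in Ube3a m-/p+ mice. WT mouse 1 and Ube3a m-/p+ mouse 1 were the most alike pair of libraries. With the replicate block 0 genes were called, and 9 channel genes had an unadjusted p under 0.05 (16.8% of all genes).

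With the correction, with the correction and the block, and with coding transcripts, respectively, log2 fold changes were 0.03, 0.03 and 0.03 for Scn2a, -0.14, -0.14 and -0.15 for Cacna1a, 0.01, 0.01 and 0.01 for Cacna1c, -0.03, -0.03 and -0.02 for Cacnb3, and -0.15, -0.15 and -0.14 for Hcn2. Cacna2d3 came to 0 with upper-quartile scaling, no filter and the correction, and to 0.02 with coding transcripts, Cacna1a to 0 with library-size scaling, and Fgf14 to 0 with coding transcripts. Without 1 mouse the ranges were -0.11 to 0.07 for Scn8a, -0.87 to 0.08 for Scn9a, -0.02 to 0.09 for Scn2b, -0.05 to 0.09 for Cacna1a, -0.07 to 0.04 for Cacna1b, -0.07 to 0.07 for Cacna1c, -0.01 to 0.11 for Cacnb2 and -0.07 to 0.10 for Cacna2d3. The causes were not tested.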
